A study of Homo sapiens with 29 samples.

Results

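BPK9 was compared with its solvent in H460 cells, with 3 BPK9 libraries and 3 DMSO libraries out of the 29 samples of the series. The 6 libraries were chosen by their labels alone. H460 is an established human lung cancer line that carries a mutated KEAP1. The cells received BPK9 at 30 µM or DMSO for 12 h, and polyadenylated RNA was sequenced. Another 3 libraries, from cells given BPK29 at 30 µM for 12 h, share these DMSO libraries and are used where the compounds are set side by side. In the study, BPK29 is a ligand of the nuclear receptor NR0B1 and BPK9 is its control compound. Both are known here by their code names only. The labels do not say whether the 3 libraries of a group came from separate cultures, so the p-values measure the spread between libraries, which may be technical. One cell line, dose and time was measured.

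The deposited values are FPKM, reads of a gene scaled to its length and to the depth of the library. The gene lengths behind the compound columns differ from those behind the other columns, so genes are compared between libraries and never with each other. Levels are given as RPM, the recovered whole reads of a gene scaled to library depth. The 9 compound libraries held 19077406 to 24824335 recovered reads. A DMSO library, replicate 3, was the shallowest. Simple-epithelium keratins marked the line: KRT8 averaged 1252 RPM in BPK9 libraries and 1278 RPM in DMSO libraries, and KRT18 averaged 804 RPM in BPK9 libraries and 864 RPM in DMSO libraries. KRT18 was also called lower with BPK9 by the read-weighted fit described below (log2 fold change -0.105, limma-voom adjusted p = 0.00146). Its adjusted p was at most 0.0322 without each library in turn. EPCAM, an epithelial surface protein, was close to absent, at 0.686 RPM in BPK9 libraries and 1.08 RPM in DMSO libraries. In the epithelial list 9 of 21 genes reached the level tested, and in the mesenchymal list 11 of 16. Of 17 markers of immune cells, CD68 and CD14 reached the level tested, and the summed level of the list was 66.8 to 70.2 RPM in BPK9 libraries and 61.7 to 68.4 RPM in DMSO libraries. PTPRC, which marks all leukocytes, averaged 0.0296 RPM in BPK9 libraries and 0.0726 RPM in DMSO libraries.

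NR0B1 is an orphan nuclear receptor without a DNA-binding domain of the usual kind, and it acts mainly by binding other regulators. In lung cancer cells with mutated KEAP1, the transcription factor NRF2 escapes degradation and drives antioxidant and detoxification genes. Heat shock proteins are chaperones that fold other proteins, and their genes are switched on by the factor HSF1 when unfolded protein accumulates. Immediate early genes encode short-lived regulators whose transcripts respond within minutes to hours to growth signals and stress.

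The comparison of BPK9 with DMSO asks what the control compound does to transcript levels by itself. The shifts were small. Among 10252 tested genes that averaged at least 5 RPM, the median absolute log2 fold change of BPK9 against DMSO was 0.040, 20 genes passed 1.2 fold and 0 passed 1.5 fold. The corresponding BPK29 median was 0.115, with 1677 genes past 1.2 fold and 185 past 1.5 fold. The largest BPK9 change at that level was 0.42 for MOSPD3.

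**Figure D1:**
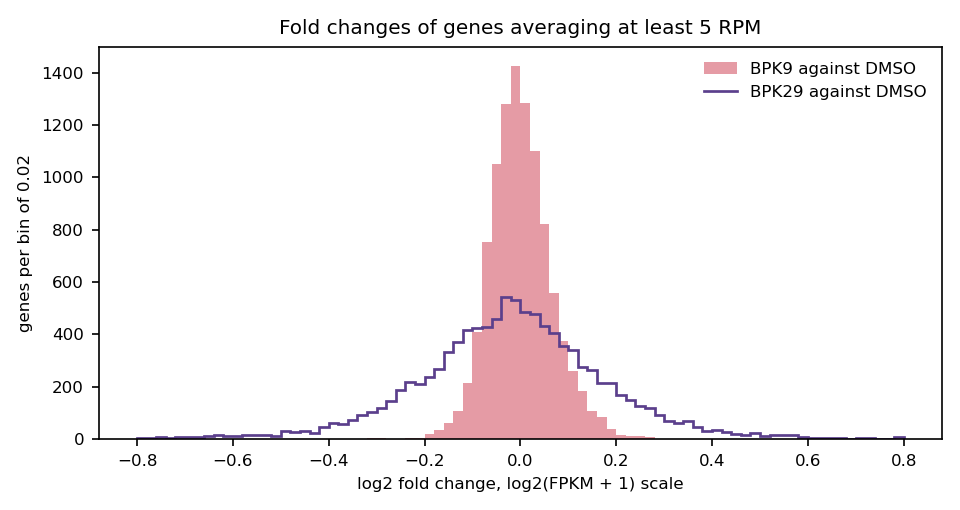
Number of genes (vertical axis) in each bin of log2 fold change (horizontal axis, log2(FPKM + 1) scale), for BPK9 against DMSO (filled) and BPK29 against DMSO (line), over 10252 genes averaging at least 5 RPM. The BPK9 distribution is the narrower, with a median absolute change of 0.040 against 0.115 for BPK29, and 53 genes of the BPK29 comparison lie beyond the axis.

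With limma on log2(FPKM + 1), 1 of 11461 genes (0.00873%) passed an adjusted p of 0.05 (Benjamini-Hochberg). At an unadjusted p under 0.05 there were 1725 genes (15.1%), 835 higher (7.29%) and 890 lower (7.77%). By sign alone, 48.5% of all genes were above 0 and 51.5% below. The called gene was SNORA71A, a small nucleolar RNA that guides modification of ribosomal RNA, with a log2 fold change of -1.31 ± 0.09 (SE, 3 against 3 libraries; limma adjusted p = 0.000847). It rested on very few reads: 3, 3 and 3 in the BPK9 libraries, 8, 9 and 7 in the BPK29 libraries, and 12, 9 and 8 in the DMSO libraries. The depth-scaled ratio of the summed reads, BPK9 over DMSO, was 0.305, with an exact 95% counting interval of 0.127 to 0.662. SNORA71A lies under the level set for named genes and is given because it was the call. Polyadenylated RNA was sequenced without strand. Whether these reads come from the small RNA itself or from an overlapping transcript was not tested.

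A read-weighted fit, limma-voom on the recovered reads, gives more weight to deeply counted genes and does not use the gene length. It called 259 of 13151 genes (1.97%), 123 higher (0.935%) and 136 lower (1.03%), with a median absolute log2 fold change of 0.14. With libraries scaled to a common total the split was 170 higher and 75 lower of 245. The count also depended on single libraries: it was 54 without BPK9 replicate 2, 54 without DMSO replicate 2 and 477 without BPK9 replicate 3, and 34 genes were called without each of the 6 libraries in turn, 18 higher and 16 lower. Of the 259 genes, 250 were tested by limma on log2(FPKM + 1), all 250 with the same sign and with adjusted p no higher than 0.367. Both fits use the same libraries and reads, so the shared sign adds no separate support. The libraries whose omission removed most calls were BPK9 replicate 2 and DMSO replicate 2, and a gene given below without its highest adjusted p over the 6 omissions lost its call in at least 1 of them, unless it is said to have kept it. In what follows, "rose" and "fell" refer to the read-weighted fit, and none of these genes passed the threshold on the log2(FPKM + 1) scale. Fold changes are on the log2(FPKM + 1) scale unless the read-weighted fit is named.

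Heat shock genes were lower with BPK9. Of 24 members tested, 19 had a fold change below 0, with a median log2 fold change of -0.066 against -0.0023 for all genes tested, and the list median stood at -0.087, -0.072 and -0.046 in the BPK9 libraries against -0.010, 0.009 and 0.004 in the DMSO libraries. The read-weighted fit called 8 lower (33.3% of the list, against 1.03% of all genes) and 0 higher. Without each library in turn it called between 5 and 11 lower. In 13 members (54.2%) all BPK9 libraries lay below all DMSO libraries, against 10.3% of all genes.

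HSPA8, the constitutive cytosolic HSP70 chaperone, stood at 3586, 3608 and 3705 RPM in the BPK9 libraries and at 3997, 4057 and 4040 RPM in the DMSO libraries. The groups did not overlap, and the mean fell by 9.88% (log2 fold change -0.15 ± 0.014, SE; limma-voom adjusted p = 1.34e-09, and at most 1.87e-06 without each library in turn; limma adjusted p = 0.059 on log2(FPKM + 1)). HSPA1B, a stress-inducible HSP70 gene, stood at 88.8, 86.8 and 87.8 RPM in the BPK9 libraries and at 99.05, 100.8 and 104 RPM in the DMSO libraries, and fell by 13.4% (limma-voom adjusted p = 0.000187, at most 0.00408 without each library in turn). HSPA1A, which encodes the same protein, stood at 104, 103 and 109 RPM with BPK9 and at 115, 121 and 120 RPM with DMSO, and fell by 11.3% (limma-voom adjusted p = 0.00146, at most 0.0345). These 2 genes are near-identical and may share reads, so how the loss divides between them is uncertain.

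HSP90AB1, the constitutive cytosolic HSP90, stood at 3962, 3812 and 4028 RPM in the BPK9 libraries and at 4246, 4309 and 4261 RPM in the DMSO libraries, and fell by 7.92% without overlap (limma-voom adjusted p = 3.73e-06, at most 0.00135). Its stress-inducible partner HSP90AA1 stood at 7957, 8243 and 8571 RPM with BPK9 and at 8299, 8487 and 8308 RPM with DMSO, which overlap (limma-voom adjusted p = 0.576). Among co-chaperones, DNAJA1, which stimulates HSP70, fell by 7.59% (limma-voom adjusted p = 0.00348). STIP1, the adaptor between HSP70 and HSP90, stood at 453, 447 and 456 RPM with BPK9 and at 484, 485 and 483 RPM with DMSO, and fell by 6.56% (limma-voom adjusted p = 0.00592). HSPD1, the mitochondrial chaperonin, fell by 5.56% (limma-voom adjusted p = 0.00146), and HSPH1, a nucleotide exchange factor of HSP70, fell by 6.94% although its BPK9 and DMSO libraries overlapped (limma-voom adjusted p = 0.0166). Outside the list, and looked at after single subunits had been seen among the calls, the cytosolic chaperonin had all 8 of its subunits below 0 and apart from DMSO, and 4 fell. Over all genes, 10.3% lay apart below DMSO and 1.03% fell. TCP1, CCT3, CCT5 and CCT6A fell by 0.09, 0.07, 0.08 and 0.09 on the log2 scale (limma-voom adjusted p = 0.0170, 0.0141, 0.00352 and 0.0264), of which CCT5 kept its call without each library in turn. The other subunits, CCT2, CCT4, CCT7 and CCT8, had read-weighted log2 fold changes between -0.053 and -0.045 and did not pass (lowest limma-voom adjusted p = 0.175). Members above 0 included HSPB8, a small heat shock protein, with a log2 fold change of 0.10 (limma-voom adjusted p = 0.0799). HSF1, whose product drives the heat shock genes, had a log2 fold change of -0.0074 with overlapping libraries (limma-voom adjusted p = 0.937).

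The HSF1 protein binds inverted repeats of a short unit with GAA at its core, and the promoters of the genes that fell are shown for where the pair GAANNTTC stands. The window searched was the 250 bases before each start listed by RefSeq (GRCh38.p14), and the motif reads the same on both strands. It was present at 1 or more listed starts in 13 of the 21 heat shock members with a promoter in the table, in 6 of the 8 that fell, and in 7.05% of 27305 genes (5.78% of all promoters). HSPH1 and STIP1 fell and held no such match in this window. The list is made of heat shock genes, so a share above that of all genes goes with how the list was chosen. Members that did not fall held the motif too. The match is a description of the sequence and not a measured site. Whether HSF1 had a part in the lower levels was not tested. Capitals mark GAANNTTC, each stretch reads 5′ to 3′ on the gene's strand, and distances are from the first motif base to the start.
HSPA8 (chr11:123062159-123062386, minus strand; 2 matches, 230 and 50 bases before the start): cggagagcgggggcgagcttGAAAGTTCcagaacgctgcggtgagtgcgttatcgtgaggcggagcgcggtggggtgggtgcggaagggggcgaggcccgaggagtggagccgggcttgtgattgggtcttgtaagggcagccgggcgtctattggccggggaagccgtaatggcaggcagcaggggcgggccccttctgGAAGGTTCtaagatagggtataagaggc
HSPA1A (chr6:31815417-31815464, plus strand; 106 bases before the start): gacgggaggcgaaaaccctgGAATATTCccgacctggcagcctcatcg
HSPA1B (chr6:31827613-31827660, plus strand; 105 bases before the start): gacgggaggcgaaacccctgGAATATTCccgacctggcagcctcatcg
DNAJA1 (chr9:33025055-33025102, plus strand; 198 bases before the start): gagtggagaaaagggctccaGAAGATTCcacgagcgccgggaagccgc
HSP90AB1 (chr6:44247763-44247863, plus strand; 1 of 3 listed starts; 2 matches, 160 and 107 bases before it): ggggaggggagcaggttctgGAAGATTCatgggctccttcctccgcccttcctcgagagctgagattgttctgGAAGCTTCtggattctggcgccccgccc
HSPD1 (chr2:197500053-197500090, minus strand; 1 of 2 listed starts; 240 bases before it): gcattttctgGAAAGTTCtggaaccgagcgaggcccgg

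**Figure D2:**
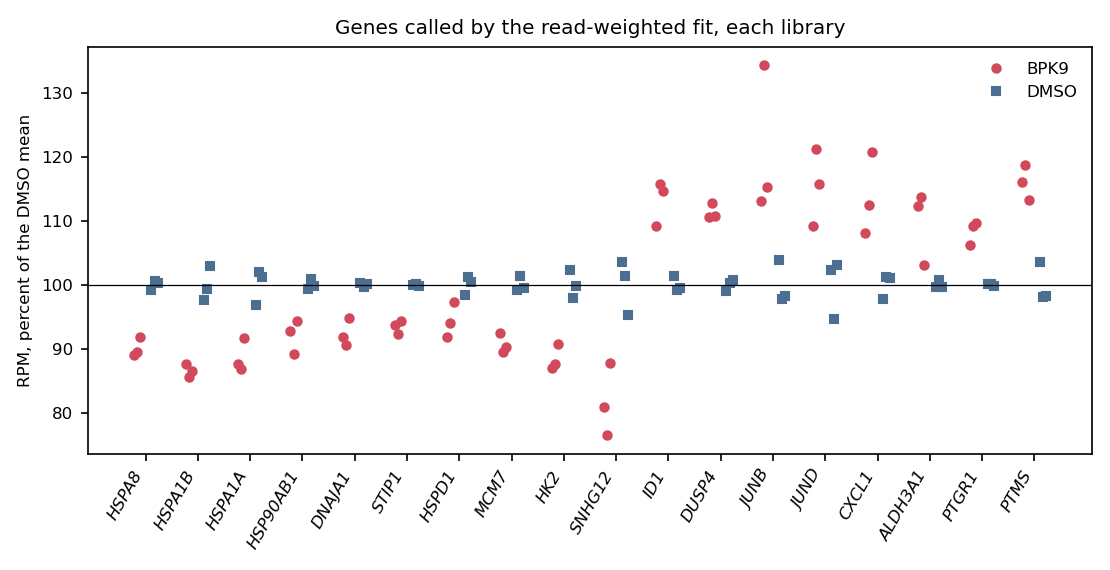
RPM of 18 genes called by the read-weighted fit, as a percent of the gene's DMSO mean (vertical axis), with a point for each of 3 BPK9 libraries (circles) and 3 DMSO libraries (squares). The heat shock genes, MCM7, HK2 and SNHG12 lie below 100 in all BPK9 libraries, and ID1, DUSP4, JUNB, JUND, CXCL1, ALDH3A1, PTGR1 and PTMS lie above it.

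Genes of RNA metabolism were mostly below 0 with BPK9, with few single calls. Ribosome biogenesis, the making of ribosomal subunits in the nucleolus, had 29 of 31 genes below 0 (median -0.055). In 13 (41.9%) all BPK9 libraries lay below all DMSO libraries, against 10.3% of all genes. In this list 3 genes fell (9.68%, against 1.03% of all genes). RRS1, a ribosome assembly factor, stood at 58.2, 57.8 and 57.4 RPM in the BPK9 libraries and at 67.5, 66.3 and 61.6 RPM in the DMSO libraries, and fell by 11.3% (limma-voom adjusted p = 0.00757). NOLC1, a nucleolar phosphoprotein, and NCL, nucleolin, fell by 5.49% and 3.61% (limma-voom adjusted p = 0.0226 and 0.0476). The calls in this list ranged from 0 to 6 without each library in turn. Host genes of small nucleolar RNAs had 16 of 17 below 0 (median -0.069). SNHG12 stood at 21.0, 19.9 and 22.8 RPM with BPK9 and at 26.9, 26.3 and 24.7 RPM with DMSO, and fell by 18.3% (limma-voom adjusted p = 0.00202), with the groups apart. DMSO replicate 1 was the highest library of this list, with a list median of 0.044, against -0.015 and -0.040 in the other DMSO libraries and -0.061, -0.055 and -0.071 in the BPK9 libraries.

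Splicing genes were also mostly below 0. Of 29 spliceosome genes 24 were below 0 (median -0.048), and 11 (37.9%) lay below DMSO without overlap, against 10.3% of all genes. In this list 3 fell (10.3%) and 1 rose (3.45%), against 1.03% and 0.935% of all genes. SNRPA, the U1 snRNP A protein, stood at 113, 111 and 108 RPM with BPK9 and at 122, 126 and 121 RPM with DMSO (read-weighted log2 fold change -0.15 ± 0.030, limma-voom adjusted p = 0.00246). The core factors SF3B3 and EFTUD2 fell by 0.10 and 0.09 (limma-voom adjusted p = 0.0284 and 0.0202). SNRPA1, of the U2 snRNP, rose by 0.15 (limma-voom adjusted p = 0.0316). SR proteins and their kinases, which select splice sites, had 18 of 20 below 0 (median -0.066). In 7 of the 20 (35%) all BPK9 libraries lay below all DMSO libraries, against 10.3% of all genes. In this list 2 fell (10%, against 1.03% of all genes). SRSF1 and SRSF2 fell by 4.74% and 5.55% (limma-voom adjusted p = 0.0452 and 0.0385). No single gene of either list was called in all 6 omissions, and the number that fell ranged from 0 to 5 in the spliceosome list and from 0 to 4 in the SR list.

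Genes for growth and division were mostly below 0 too. Of 30 DNA replication genes 27 were below 0 (median -0.031) and 1 fell (3.33%, against 1.03% of all genes). MCM7, a subunit of the replicative helicase, stood at 516, 499 and 504 RPM in the BPK9 libraries and at 553, 565 and 555 RPM in the DMSO libraries, and fell by 9.25% (limma-voom adjusted p = 0.000112, at most 0.00726 without each library in turn). Of 25 mitosis genes 23 were below 0 (median -0.042), but the list medians of the BPK9 libraries, at -0.067, -0.057 and -0.019, overlapped those of the DMSO libraries, at -0.029, -0.002 and 0.028. In 6 of the 25 (24%) all BPK9 libraries lay below all DMSO libraries, against 10.3% of all genes. In the mitosis list 2 fell (8%, against 1.03% of all genes). CDC20, an activator of the anaphase ligase, fell by 0.09 (limma-voom adjusted p = 0.0447), and the spindle motor KIF11 by 0.11 (limma-voom adjusted p = 0.0283). All 20 cytosolic aminoacyl-tRNA synthetases, the enzymes that charge tRNA, were below 0 (median -0.039), and 2 fell (10% of the list). These were RARS and YARS, which fell by 0.11 each on the log2 scale (limma-voom adjusted p = 0.0172 and 0.0445). Of 21 purine, serine and folate enzymes 20 were below 0 (median -0.041). PFAS and MTHFD1L fell (9.52% of the list), by 0.14 each (limma-voom adjusted p = 0.00438 and 0.0283). In glycolysis, HK2, hexokinase 2, fell by 11.6% to 73.0, 73.5 and 76.1 RPM in the BPK9 libraries, against 85.9, 82.1 and 83.7 RPM in the DMSO libraries (limma-voom adjusted p = 0.00198). Both HK2 and ENO1, enolase 1, kept their calls without each library in turn; ENO1 fell by 4.79% (limma-voom adjusted p = 0.00182), while the list of hypoxia and glycolysis genes as a whole had a median of -0.014.

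**Figure D3:**
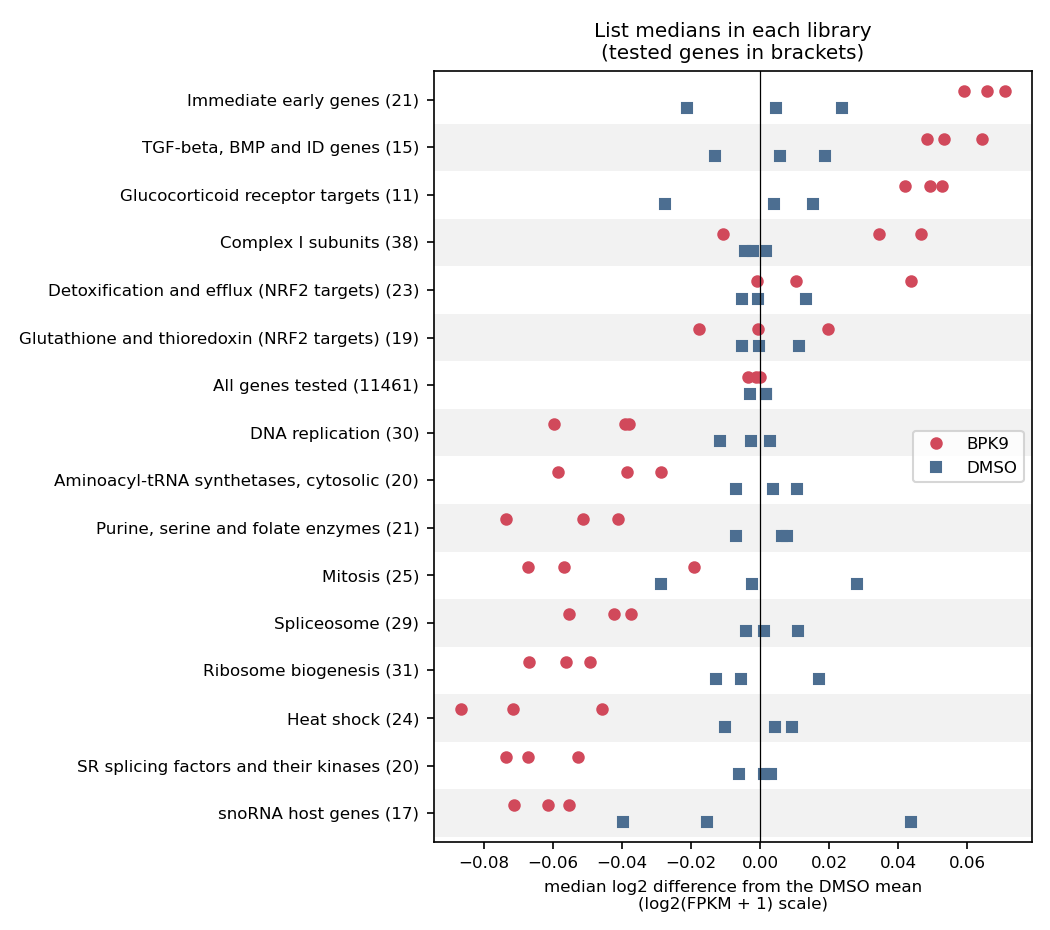
Median log2 difference of each list's tested genes from their own DMSO mean (horizontal axis, log2(FPKM + 1) scale), for each of 3 BPK9 libraries (circles) and 3 DMSO libraries (squares), with the number of tested genes in brackets. In the heat shock list the BPK9 medians lie between -0.087 and -0.046 and in the immediate early list between 0.059 and 0.071, apart from the DMSO medians, while mitosis, complex I and both NRF2 lists overlap.

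Immediate early genes were higher with BPK9. Of 21 tested, 17 were above 0 (median 0.063), and in 11 (52.4%) all BPK9 libraries lay above all DMSO libraries, against 9.13% of all genes. The list median was 0.066, 0.059 and 0.071 in the BPK9 libraries against 0.024, 0.005 and -0.021 in the DMSO libraries. Single calls were 2 (9.52%, against 0.935% of all genes), both AP-1 subunits. JUNB stood at 35.4, 42.0 and 36.1 RPM in the BPK9 libraries and at 32.5, 30.6 and 30.8 RPM in the DMSO libraries, and rose by 20.9% (limma-voom adjusted p = 0.00312). JUND stood at 48.4, 53.8 and 51.4 RPM with BPK9 and at 45.4, 42.0 and 45.7 RPM with DMSO, and rose by 15.4% (limma-voom adjusted p = 0.0154). Each lost its call without at least 1 library, and the list count ranged from 0 to 3. Their partner FOS had about 2 RPM in every group and EGR1 likewise, with read-weighted log2 fold changes of -0.03 and 0.01 (limma-voom adjusted p = 0.961 and 0.99).

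Neighbouring signalling lists held single genes that rose. ID1, an inhibitor of basic helix-loop-helix factors and a target of BMP signals, stood at 163, 173 and 171 RPM in the BPK9 libraries and at 152, 148 and 149 RPM in the DMSO libraries, and rose by 13.1% (limma-voom adjusted p = 0.000297, at most 0.00868 without each library in turn). It was the call among 20 TGF-beta, BMP and ID genes in the read-weighted fit (5%, against 0.935% of all genes). Of 15 tested on the log2(FPKM + 1) scale, 11 were above 0 (median 0.059). In 7 of the 15 (46.7%) all BPK9 libraries lay above all DMSO libraries, against 9.13% of all genes. DUSP4, a phosphatase of MAP kinases, stood at 272, 277 and 272 RPM with BPK9 and at 243, 246 and 247 RPM with DMSO, and rose by 11.4% (limma-voom adjusted p = 0.000141, at most 0.00408). No other MAP kinase feedback gene was called, and the list median was 0.013. CXCL1, a chemokine that draws neutrophils, stood at 197, 205 and 220 RPM with BPK9 and at 178, 185 and 184 RPM with DMSO, and rose by 13.7% (limma-voom adjusted p = 0.000449, at most 0.00709), in a list of 20 NF-kB and chemokine genes with a median of -0.011. RHOB, a small GTPase whose gene responds early to stress, rose by 10.03% (limma-voom adjusted p = 0.00146, at most 0.0188). Of 11 glucocorticoid receptor targets 8 were above 0 (median 0.054), with 4 (36.4%) apart above DMSO, against 9.13% of all genes. None was called by limma-voom or by limma, and 1 of 11 was higher at an unadjusted p under 0.05, against 7.29% of all genes.

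Respiratory chain genes leaned up in 2 of the 3 BPK9 libraries. Complex I subunits had 27 of 38 above 0 (median 0.028), but the list median was 0.034, 0.047 and -0.011 in the BPK9 libraries, against -0.004, -0.002 and 0.002 in the DMSO libraries. NDUFS5, an accessory subunit, rose by 0.10 (limma-voom adjusted p = 0.038), with 179, 171 and 169 RPM in the BPK9 libraries and 163, 160 and 159 RPM in the DMSO libraries. Endoplasmic reticulum chaperones, the folding machinery of secreted proteins, had a median of 0.010. In 7 of 22 (31.8%) all BPK9 libraries lay above all DMSO libraries, against 9.13% of all genes. None was called by limma-voom or by limma, and 4 of 22 were higher at an unadjusted p under 0.05, against 7.29% of all genes.

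NR0B1, NFE2L2, KEAP1, SNW1 and RBM45 were not called with BPK9. NR0B1 itself stood at 96.2, 96.3 and 95.3 RPM in the BPK9 libraries, 90.3, 86.0 and 88.9 RPM in the BPK29 libraries and 94.8, 92.1 and 92.3 RPM in the DMSO libraries (BPK9 against DMSO 0.04 ± 0.024, limma adjusted p = 0.436). NFE2L2, which encodes NRF2, had a log2 fold change of 0.01 ± 0.027 with BPK9 (limma adjusted p = 0.864), KEAP1, its degradation adaptor, one of 0.06 ± 0.042 (0.518), SNW1, a splicing factor and partner of NR0B1, one of -0.04 ± 0.019 (0.317), and RBM45, an RNA-binding protein, one of -0.07 ± 0.047 (0.523). Among the other regulators of NRF2, CUL3, the scaffold of the ligase that KEAP1 serves, stood at 142, 142 and 151 RPM in the BPK9 libraries and at 155, 160 and 158 RPM in the DMSO libraries, and fell by 8.09% (limma-voom adjusted p = 0.0161, and up to 0.132 without 1 library). In the read-weighted fit it was the only call among the 10 genes of its list, CNC factors, small MAFs, KEAP1 and CUL3 (10%, against 1.03% of all genes). Without each library in turn the list held 0 to 1 such calls. SQSTM1, an autophagy receptor that binds KEAP1 and is itself an NRF2 target, fell by 0.07 on the log2 scale (limma-voom adjusted p = 0.0141). NRF2 targets for glutathione and thioredoxin had a median of 0.0019 over 19 genes, with 10 above 0 and 9 below. In this list 4 (21.1%) lay apart below DMSO and 0 apart above, against 10.3% and 9.13% of all genes. In the read-weighted fit 1 of them fell (5.26%, against 1.03% of all genes). Targets for NADPH had a median of -0.017 over 9 genes, with 7 below 0. Of these 9, 1 (11.1%) lay apart below DMSO and 0 were called. HMOX1, heme oxygenase, stood at 48.9, 48.9 and 49.7 RPM with BPK9, at 106, 105 and 102 RPM with BPK29 and at 45.9, 48.6 and 49.6 RPM with DMSO, so the BPK9 and DMSO libraries overlapped. TXNRD1, thioredoxin reductase, stood at 2908, 2911 and 2976 RPM with BPK9 and at 3007, 3060 and 2986 RPM with DMSO, apart by a narrow margin (limma-voom adjusted p = 0.11).

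Single NRF2 targets were called. Of 23 detoxification and efflux targets of NRF2, 14 were above 0 (median 0.025) and 3 rose (13%, against 0.935% of all genes). ALDH3A1, an aldehyde dehydrogenase that is also a target of the aryl hydrocarbon receptor, stood at 1516, 1535 and 1391 RPM in the BPK9 libraries and at 1344, 1360 and 1344 RPM in the DMSO libraries, and rose by 9.73% (limma-voom adjusted p = 0.000435, at most 0.0151 without each library in turn). PTGR1, prostaglandin reductase 1, stood at 351, 361 and 362 RPM with BPK9 and at 331, 331 and 330 RPM with DMSO, and rose by 8.32% (limma-voom adjusted p = 0.00279, at most 0.0329). ABCC3, an efflux transporter, rose by 0.14 in the read-weighted fit (limma-voom adjusted p = 0.0479) with overlapping libraries. SRXN1, sulfiredoxin, fell by 0.08 (limma-voom adjusted p = 0.00948).

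Genes that changed after NR0B1 knockdown were taken from other libraries of the series, in which H460 cells carried a short hairpin RNA against NR0B1 or against GFP for 72 h (3 libraries each). The 854 genes (7.15% of 11938) called by limma and at least 1.5 fold lower after that knockdown gave 794 tested here. Their median with BPK9 was -0.010, with 68 genes (8.56%) apart above DMSO and 112 (14.1%) apart below, against 9.13% and 10.3% of all genes. The 829 genes (6.94%) at least 1.5 fold higher after the knockdown gave 692 tested here, with a BPK9 median of 0.025, 118 genes (17.1%) apart above DMSO and 50 (7.23%) apart below. In the read-weighted fit 13 of the genes that were lower after knockdown rose (1.56%) and 15 fell (1.8%), against 0.935% and 1.03% of all genes. In the same fit 23 of the genes that were higher after knockdown rose (2.89%) and 4 fell (0.503%).

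Scanning families of gene symbols, which share their leading letters and had at least 10 tested members, gave 141 families, 66 of them with a median above 0. The DDX family of RNA helicases had 33 of 37 members below 0 (median -0.062). In 18 (48.6%) all BPK9 libraries lay below all DMSO libraries, against 10.3% of all genes. In this family 6 fell (16.2%, against 1.03% of all genes). DDX1 stood at 317, 318 and 324 RPM with BPK9 and at 337, 340 and 345 RPM with DMSO (limma-voom adjusted p = 0.0232), and DDX21, a nucleolar helicase, at 836, 836 and 898 RPM with BPK9 and at 893, 922 and 921 RPM with DMSO, with overlap (limma-voom adjusted p = 0.0161). DDX6, DDX39A, DDX51 and DDX56 were the others. The remaining families with the lowest medians were SNORD (-0.118, 17 of 21 below 0), SNHG (-0.097), MCM (-0.067, 10 of 11), SRSF (-0.062) and EXOSC (-0.061), the last being subunits of the RNA exosome. SNORD genes are short and thinly counted, and the source of their reads was not tested. Their summed level was 45.7, 42.8 and 46.5 RPM in the BPK9 libraries and 54.8, 48.4 and 46.3 RPM in the DMSO libraries, which overlap. None was called by limma-voom or by limma on log2(FPKM + 1). By limma, 6 of 21 were lower at an unadjusted p under 0.05, against 7.77% of all genes. At the other end stood TSPAN (0.069, 12 of 14 above 0), CYP (0.055), NDUFA (0.042), PRR (0.042), KLF (0.041) and GALNT (0.040). Of these 6 families, 1 gene was called by limma-voom: CYP2U1, a fatty acid hydroxylase that was too low for the limma fit on log2(FPKM + 1), stood at 6.98, 7.08 and 6.84 RPM with BPK9 and at 5.28, 5.47 and 5.45 RPM with DMSO (limma-voom adjusted p = 0.0496). At an unadjusted p under 0.05 by limma, 4 of 11 CYP and 3 of 13 NDUFA genes were higher. So were 3 of 12 KLF and 2 of 14 TSPAN genes, against 7.29% of all genes.

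The largest single changes in the read-weighted fit fell outside the lists for the most part. By the rule that names genes with groups apart and at least 5 RPM, those that rose most included SCAND1, at 25.8, 29.9 and 26.9 RPM in the BPK9 libraries against 22.02, 21.2 and 20.9 RPM in the DMSO libraries (limma-voom adjusted p = 0.000356). B3GNT9, a glycosyltransferase, stood at 26.6, 27.7 and 27.4 RPM with BPK9 and at 21.1, 22.5 and 21.4 RPM with DMSO (limma-voom adjusted p = 0.000509). ZSCAN31, a zinc finger protein, stood at 39.9, 42.2 and 41.9 RPM with BPK9 and at 33.4, 32.4 and 35.1 RPM with DMSO (limma-voom adjusted p = 0.000141). SCAND1, B3GNT9 and ZSCAN31 were called without each library in turn. MOSPD3 rose by more, by 0.52 in the read-weighted fit (limma-voom adjusted p = 0.00926, up to 0.0863 without 1 library). The stress cytokine GDF15 rose by 0.29 (limma-voom adjusted p = 0.0409), with 11.5, 13.1 and 12.0 RPM in the BPK9 libraries and 10.6, 9.5 and 9.67 RPM in the DMSO libraries. Genes that fell included THBS1, the matrix protein thrombospondin 1, by 0.37 (limma-voom adjusted p = 0.0400), and BCL2L11, which encodes the death-promoting protein BIM, by 0.25 (limma-voom adjusted p = 0.0415). ZNF121, MROH6, CEP135 and GOLGA8B fell by more than BCL2L11. Their read-weighted log2 fold changes were -0.39, -0.36, -0.32 and -0.32 (limma-voom adjusted p = 0.0108, 0.0229, 0.00448 and 0.00611). PTMS, parathymosin, lay outside that rule and was chosen after its values were seen: it rose by 16.0% to 258, 264 and 252 RPM with BPK9, against 230, 218 and 218 RPM with DMSO (limma-voom adjusted p = 6.15e-06, at most 0.00137).

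BPK29 was given at the same dose and time, so the compounds can be compared directly, and 5379 of 11461 genes (46.9%) differed between them by limma, 2258 with BPK29 higher (19.7%) and 3121 with BPK29 lower (27.2%). After scaling to a common total, the balance of this same comparison turned round, with 3295 genes higher and 2290 lower with BPK29 than with BPK9. BPK29 against DMSO had 5777 calls (50.4%). Against DMSO, heat shock genes had a median of -0.066 with BPK9 and -0.297 with BPK29, and 18 of 24 were lower with BPK29 than with BPK9, with 1 higher. HSPA8 stood at 3586, 3608 and 3705 RPM in the BPK9 libraries and at 2545, 2531 and 2581 RPM in the BPK29 libraries, a BPK29 minus BPK9 difference of -0.51 ± 0.019 (limma adjusted p = 2.02e-07). ID1 stood at 163, 173 and 171 RPM with BPK9 and at 320.5, 312 and 312 RPM with BPK29, a difference of 0.89 ± 0.026 (limma adjusted p = 3.58e-08). Mitosis genes had medians of -0.042 with BPK9 and -0.338 with BPK29, and 24 of 25 were lower with BPK29 than with BPK9. DUSP4 stood at 272, 277 and 272 RPM with BPK9 and at 279, 276 and 276 RPM with BPK29, a difference of 0.02 ± 0.019 (limma adjusted p = 0.481).

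In some other lists the BPK9 median was at least as far from 0 as the BPK29 median. SR factors had medians of -0.066 with BPK9 and -0.047 with BPK29, and 3 of 20 were higher and 7 lower with BPK29 in the direct comparison. The SRSF family of symbols alone had medians of -0.062 with BPK9 and -0.116 with BPK29. Of its 11 genes, 1 was higher and 6 were lower with BPK29 in the direct comparison. Cytosolic aminoacyl-tRNA synthetases had medians of -0.039 with BPK9 and 0.035 with BPK29, and 10 of 20 were higher with BPK29 than with BPK9, with 6 lower. RRS1 stood at 58.2, 57.8 and 57.4 RPM with BPK9 and at 65.3, 63.9 and 62.9 RPM with BPK29, a BPK29 minus BPK9 difference of 0.15 ± 0.032 (limma adjusted p = 0.00463). The list of RRS1, ribosome biogenesis, went the other way, with medians of -0.055 with BPK9 and -0.089 with BPK29. In the direct comparison 5 of its 31 genes were higher with BPK29 and 9 lower. FADS2, a fatty acid desaturase, stood at 68.0, 66.9 and 60.4 RPM with BPK9, 49.2, 49.2 and 48.1 RPM with BPK29 and 57.7, 57.3 and 59.0 RPM with DMSO, so it lay above DMSO with BPK9 and below it with BPK29 (difference -0.38, limma adjusted p = 8.43e-05). The list of FADS2, fatty acid synthesis and desaturation, had medians of -0.0073 with BPK9 and -0.095 with BPK29. Both comparisons with DMSO share the same 3 DMSO libraries, so their values are set side by side only.

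**Figure D4:**
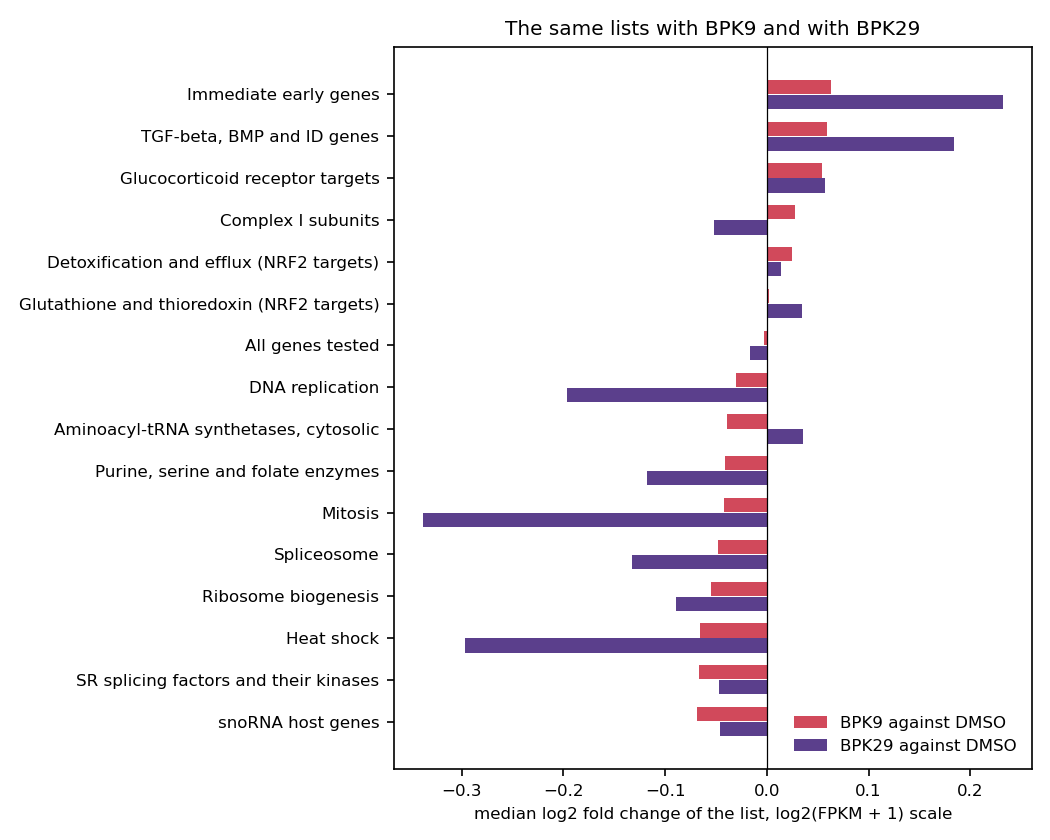
Median log2 fold change of each list (horizontal axis, log2(FPKM + 1) scale) for BPK9 against DMSO (upper bar) and BPK29 against DMSO (lower bar). The heat shock medians are -0.066 with BPK9 and -0.297 with BPK29. Those of SR splicing factors and their kinases are -0.066 and -0.047. In the direct comparison 3 of 20 genes of the SR list were higher with BPK29 and 7 lower.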

How the data were processed

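RNA libraries were made with a kit that does not mark strand, per the labels' protocols, so overlapping and antisense genes cannot be told apart. The authors deposited FPKM for 23710 gene symbols; 28 are blank for the compound libraries. The tools STAR, featureCounts and DESeq2 and the build hg19 are named, without roles, per the submitters' processing notes; the annotation is not given in the sources used here. Whole reads were recovered from the FPKM steps for all 16211 genes above 0 in at least 3 compound libraries (tolerance 0.02 reads; the allowance for rounding was set after implausible totals were seen). A gene whose reads are all multiples of a number is scaled down by it, which moves its RPM and not its ratios. Implied lengths were over 2 fold apart between knockdown and compound columns for 53.8% of genes, and the deposited scaling lies within 1.04% of median-ratio factors.

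The 9 compound libraries were fitted together with limma 3.58.1 (R 4.3.3), with a variance trend, on log2(FPKM + 1), which understates the change of low genes. Genes with at least 1 FPKM in 3 libraries were kept, and adjusted p is Benjamini-Hochberg. The fit was tested on simulated data with the same spread for all genes. It found 42.5% of 40 genes raised 1.2 fold and 25% of 40 genes lowered 1.2 fold. At 1.5 fold it found 90% of the raised genes and 95% of the lowered genes. Limma-voom on recovered reads (at least 10 in 3 libraries) was the alternative to it; its variants, and naming genes from its calls, were chosen after the first fit had called 1 gene. The rule names NR0B1, NFE2L2, KEAP1, SNW1 and RBM45, the 15 called genes changed most each way with groups apart and at least 5 RPM, and up to 4 members of each list; further genes were named after their values were seen. The members and the 57 lists were chosen with earlier results of these data known. Same-numbered BPK9 and DMSO libraries were not treated as pairs, since the correlations of their deviations were 0.053, 0.042 and 0.022.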

Additional observations from a re-analysis of the deposited data

How the results depend on the processing

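On the log2(FPKM + 1) scale the count of genes called for BPK9 against DMSO was 1 with a pseudocount of 0.1 FPKM and with median-ratio factors, 2 with no filter, 13 with at least 5 FPKM, 9 with a common total, and 2 in the 6 libraries alone; it ranged from 1 to 2 without each replicate. Limma-voom called 259. Alternatives chosen after seeing the data gave 246 with limma on log2(RPM + 1), of which 226 were also called by voom, and with voom 146 in the 6 libraries alone, 245 with a common total, and 54 to 477 without each replicate (193, 54 and 477 without BPK9 replicates 1, 2 and 3; 186, 54 and 178 without DMSO replicates 1, 2 and 3). The replicate block left the count at 1 and moved the voom count to 498; the labels give no pairing, although each BPK9 library correlated best with the DMSO library of its number. The count for BPK29 against BPK9 stayed between 4592 and 6244. Of the list medians with at least 5 tested genes, 29 of 55 kept their sign under all 24 alternatives, heat shock (-0.074 to -0.049), SR factors (-0.073 to -0.055), ribosome biogenesis (-0.070 to -0.042) and immediate early genes (0.041 to 0.097) among them. A common total turned the balance of calls: for BPK9 against DMSO voom called 170 higher and 75 lower, against 123 and 136 with the deposited scaling, and BPK29 against BPK9 had 3295 higher and 2290 lower, against 2258 and 3121. Limma on log2(RPM + 1) gave 131 higher and 115 lower for BPK9 against DMSO. Of the 259 voom calls, 258 had the same sign without each library in turn. The other, MAN1C1, was not tested in every one of these fits. These fits share most of their libraries with the full fit. Tests with edgeR and DESeq2 were not run, and the recovered reads were tested by limma-voom and by limma on log2(RPM + 1). Precision is limited by 3 libraries a group, and by reads for low genes such as SNORA71A.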
